A study of Homo sapiens with 12 samples.

Results

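A set of 10 Notch pathway genes was followed in 2 keratinocyte lines before and after a pulse of hydrogen peroxide. The set was chosen by gene name and holds 3 receptors (NOTCH1, NOTCH2, NOTCH3), 3 ligands (JAG1, JAG2, DLL1) and 4 target genes (HES1, HEY1, HES4, NRARP). All 10 were found among the 58735 genes of the count table, and all 10 were among the 16618 genes with a mean count of at least 10 over the 12 libraries. TIGK is an immortalized line of gingival (oral) keratinocytes, and HaCaT is an immortalized line of skin keratinocytes. Each line was left untreated in DermaLife K Keratinocyte Complete Medium (Tctrl for TIGK, Hctrl for HaCaT) or received 5 mM H2O2 in that medium for 3 h (Thp for TIGK, Hhp for HaCaT). There were 3 libraries of polyA RNA in each of the 4 groups, from cultures grown to confluence. Each tissue was represented by a single line, so a difference between the tissues and a difference between the lines cannot be told apart. The labels did not state that the 3 libraries of a group came from separate cultures, so p-values measure only the spread between these samples, which may be technical. The labels of the treated libraries gave the agent as H2O2, H2O3 or H2O4 from replicate to replicate, and all 6 were taken as H2O2, as the treatment protocol stated.

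Notch receptors are single-pass membrane proteins that are activated by ligands on a neighbouring cell. Ligand binding leads to cleavage by an ADAM protease and then by gamma-secretase, and the freed intracellular domain joins the DNA-binding protein RBPJ and a Mastermind-like coactivator to switch on genes of the HES and HEY families. In stratified epithelia the pathway is known for promoting the exit from the basal layer and the onset of differentiation.

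The libraries held 30426401 to 49034244 counted reads, with a median of 34684154.5. The share of reads from mitochondrially encoded genes was 3.33% to 3.45% in Tctrl, 1.39% to 1.5% in Thp, 6.1% to 6.26% in Hctrl and 3.3% to 3.51% in Hhp, and its part in the results below was not tested. All 7 keratinocyte markers (KRT5, KRT14, TP63, ITGA6, CDH1, DSP, DSG3) were above 3 counts in every group, with a summed level of 28600 to 37200 CPM (counts scaled to library size). The summed levels of fibroblast, melanocyte, endothelial and leukocyte markers reached at most 25.8, 2.59, 1.71 and 3.43 CPM. In bulk RNA, fewer cells of a type and less RNA per cell cannot be told apart.

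The DNA before the start site is shown for 3 target genes, because HES1 RNA rose in both lines whereas HES4 and NRARP RNA went opposite ways in the 2 lines. The sequences are from RefSeq (GRCh38.p14), which held the promoters of 8 of the 10 members, with DLL1 and HEY1 not matched. The last 150 bases before each start site are given 5′ to 3′ on the gene's strand, in lower case, and the capitals mark TGGGAA, the core letters of the RBPJ recognition sequence. HES1 lies at chr3:194135998-194136147 on the plus strand, HES4 at chr1:1000098-1000247 on the minus strand, and NRARP at chr9:137302272-137302421 on the minus strand.
HES1: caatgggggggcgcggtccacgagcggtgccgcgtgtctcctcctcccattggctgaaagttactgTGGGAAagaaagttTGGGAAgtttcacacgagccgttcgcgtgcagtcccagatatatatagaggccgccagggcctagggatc
HES4: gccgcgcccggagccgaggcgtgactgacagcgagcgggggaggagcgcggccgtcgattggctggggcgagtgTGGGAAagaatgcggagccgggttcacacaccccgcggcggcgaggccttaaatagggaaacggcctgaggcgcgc
NRARP: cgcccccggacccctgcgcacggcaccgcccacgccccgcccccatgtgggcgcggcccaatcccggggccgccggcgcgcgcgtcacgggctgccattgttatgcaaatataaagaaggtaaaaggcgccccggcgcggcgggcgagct

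Motifs were searched on both strands of the 250 bases before each start site. TGGGAA occurred at -84 and -70 in HES1 and at -76 in HES4, and in none of the other 6 matched members, NRARP included. It was found in 20.8% of all 35116 RefSeq promoters, and at least 2 copies were found in 2.9%. The longer GTGGGAA, which contains TGGGAA, occurred in HES1 and HES4 and in 5.43% of all promoters. HES1 also held 3 copies of the N box CACNAG, the letters bound by HES proteins, at -165, -132 and -58. The N box was found in 32% of all promoters, and at least 2 copies were found in 6.32%. A pair of inverted heat-shock units, GAANNTTC, began at -67 in HES1 and overlapped its downstream TGGGAA (5.78% of all promoters). NOTCH3 held an N box at -211. The E box CACGTG (6.34% of all promoters) and the AP-1 letters TGANTCA (6.57%) were in none of the 8 windows. These matches describe the letters in the windows and are not evidence of binding.

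Compared per length, the 2 Jagged ligands had the highest means of the set in both untreated lines, with a different one on top in each. The third ligand, DLL1, was at rank 6 in Tctrl and rank 5 in Hctrl. Levels between genes are given as RPKM (reads scaled to gene length and library size), computed from the counts. In Tctrl, JAG2 stood first at 44.1 RPKM, apart from JAG1, NRARP, HES4, NOTCH1 and DLL1 (15.6 to 11.9), each of which overlapped the next in its range over libraries. In Hctrl, JAG1 stood first at 87.2 RPKM, and JAG2 followed at 24.5. After H2O2, HES1 moved from the eighth place to the second in TIGK (26 RPKM, between JAG2 at 31.6 and JAG1 at 15.6). In HaCaT it moved from the sixth place to the second (30 RPKM), below JAG1 at 42.9 and overlapping JAG2 at 25.6. HEY1 was the lowest member in all 4 groups, at 1.04 RPKM in Tctrl, 0.768 in Thp, 0.238 in Hctrl and 0.254 in Hhp.

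**Figure D1:**
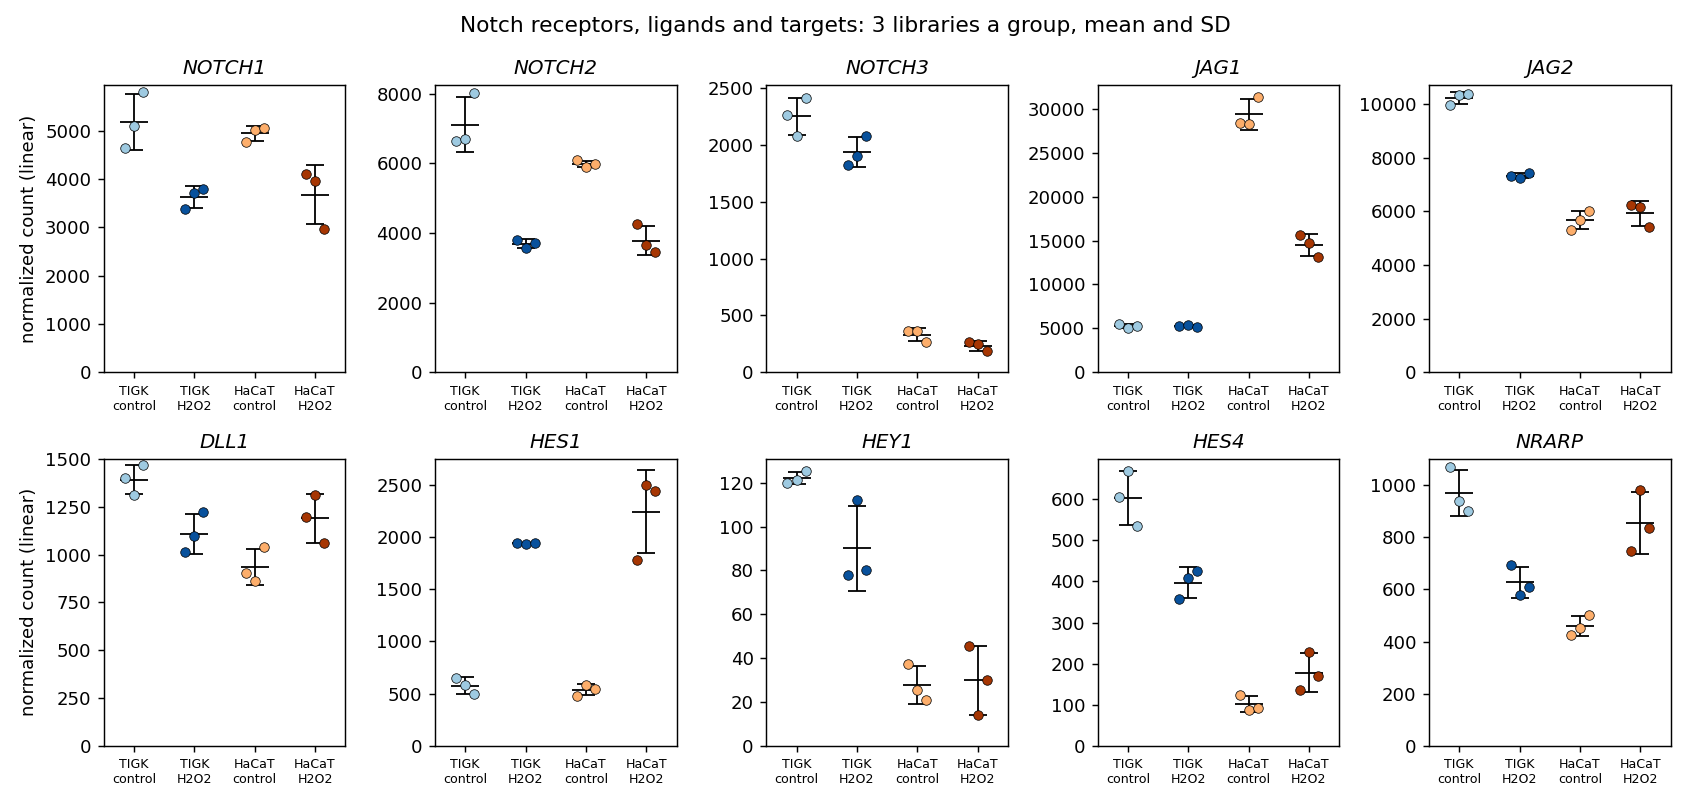
Normalized read counts of the 10 members on linear axes that start at 0, with 1 point a library, the mean as a horizontal line and the SD as bars (n = 3 a group). HES1 lies at 481 to 653 in the untreated groups and at 1785 to 2504 after H2O2, while JAG1 lies at 28380 to 31470 in untreated HaCaT and at 5014 to 5473 in TIGK.

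Several members changed in each line after H2O2. A gene was called where its adjusted p was under 0.01, by the quasi-likelihood test of edgeR, with the Benjamini-Hochberg method applied across the 16618 genes tested. In TIGK, 6 of the 10 members were called, 1 higher and 5 lower after H2O2, against 23.2% of all genes called (10.2% higher and 12.9% lower). In HaCaT, 8 of the 10 were called, 4 higher and 4 lower, against 34.1% of all genes (18.9% higher and 15.2% lower). The median of the members was -0.46 on the log2 scale in TIGK, beside 0.01 for all genes, and 0.07 in HaCaT, beside 0.04 for all genes. Without Hctrl 2, 5 members were called in HaCaT. Values per library below are normalized counts, which are counts scaled to a library of 36274734 reads.

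Among the ligands, JAG1, the Jagged ligand most abundant in skin-derived HaCaT, fell in HaCaT and was not called in TIGK. JAG1 (ENSG00000101384, chr20:10637684-10673999, minus strand) was at 5473, 5014 and 5261 in Tctrl, at 5241, 5385 and 5117 in Thp, at 28400, 28380 and 31470 in Hctrl, and at 15610, 14700 and 13100 in Hhp. The 2 TIGK groups overlapped, every HaCaT library was above every TIGK library, and the 2 HaCaT groups did not overlap. In HaCaT the log2 fold change was -1.02 ± 0.06 (SE, adjusted p = 7.24e-10), a fold of 0.492. In TIGK it was -0.00 with a 95% interval from -0.136 to 0.135 (adjusted p = 0.997). The responses differed by 1.02 ± 0.09 on the log2 scale (TIGK minus HaCaT, SE, adjusted p = 5.49e-07). JAG1 was 5.6-fold higher in HaCaT than in TIGK without treatment (adjusted p = 1.67e-16) and 2.76-fold higher after H2O2 (adjusted p = 2.79e-13).

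JAG2, the other Jagged ligand, showed the reverse order of the lines and fell in TIGK. JAG2 (ENSG00000184916, chr14:105140981-105168824, minus strand) was at 9963, 10340 and 10400 in Tctrl, at 7337, 7243 and 7440 in Thp, at 5324, 5695 and 6007 in Hctrl, and at 6242, 6166 and 5403 in Hhp. All TIGK libraries lay above all HaCaT libraries, the TIGK groups were apart, and the HaCaT groups overlapped. The log2 fold change was -0.48 ± 0.06 in TIGK (SE, adjusted p = 5.54e-06) and 0.07 in HaCaT (95% interval -0.06 to 0.19, adjusted p = 0.398). The responses differed by -0.545 ± 0.08 (SE, adjusted p = 0.000311). JAG2 was 1.8-fold higher in TIGK than in HaCaT untreated (adjusted p = 2.55e-10) and 1.24-fold higher after H2O2 (adjusted p = 0.000164).

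DLL1, a Delta-like ligand, moved in opposite directions in the 2 lines, by smaller amounts whose calls depended on the fit and on single libraries. DLL1 (ENSG00000198719, chr6:170282206-170306565, minus strand) was at 1399, 1313 and 1468 in Tctrl, at 1014, 1096 and 1222 in Thp, at 902, 863 and 1042 in Hctrl, and at 1198, 1314 and 1059 in Hhp. The groups of each line did not overlap, nor did the untreated groups, and the 2 treated groups did. The log2 fold change was -0.32 ± 0.09 in TIGK (SE, adjusted p = 0.0111, not called) and 0.35 ± 0.09 in HaCaT (SE, adjusted p = 0.00568), and the difference was -0.67 ± 0.13 (SE, adjusted p = 0.00271). Untreated, DLL1 was 1.49-fold higher in TIGK (adjusted p = 2.28e-05), and after H2O2 the log2 difference of HaCaT against TIGK was 0.10 (95% interval -0.10 to 0.29, adjusted p = 0.371). The call of the difference was lost without any of Thp 1, Thp 2, Hctrl 1, Hctrl 2 or Hhp 2 (adjusted p 0.0102 to 0.0162). The HaCaT call was lost without any of Tctrl 2, Thp 2, Thp 3, Hctrl 1, Hctrl 2, Hhp 1 or Hhp 2 (0.0103 to 0.0393). It was also lost with the HaCaT groups fitted alone (0.0197 in edgeR, 0.0141 in DESeq2), with upper quartile factors (0.0123) and with a mean count of 50 (0.0121). The TIGK change was called without any of Hctrl 3, Hhp 2 or Hhp 3 (0.00425 to 0.00944) and under 6 other settings, DESeq2 and the TIGK groups fitted alone among them (0.000778 to 0.00755).

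DLL1 overlaps FAM120B, which lies on the opposite strand, and since the use of strand in the counting is not given in the sources used here, reads of the pair may not be told apart. FAM120B was at 1347 ± 16.5 (SD, n = 3) in Tctrl, 1502 ± 58.6 in Thp, 1472 ± 98.3 in Hctrl and 1611 ± 159 in Hhp. Its adjusted p was 0.116 to 0.239 in the 4 comparisons of groups, and its responses differed by 0.03 on the log2 scale (95% interval -0.20 to 0.25, adjusted p = 0.917).

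Of the 3 receptors, 2 fell in TIGK and 3 in HaCaT, beside 12.9% and 15.2% of all genes called lower. NOTCH2 had the lowest log2 fold change of the receptors in each line. NOTCH2 (ENSG00000134250, chr1:119911553-120069626, minus strand) was at 6633, 6690 and 8025 in Tctrl, at 3805, 3559 and 3704 in Thp, at 6085, 5911 and 5975 in Hctrl, and at 4251, 3649 and 3443 in Hhp. Every treated library was below every untreated one, across both lines. The log2 fold change was -0.95 ± 0.08 in TIGK (SE, adjusted p = 2.41e-08) and -0.66 ± 0.08 in HaCaT (SE, adjusted p = 1.84e-06), a difference of -0.28 (95% interval -0.51 to -0.06, adjusted p = 0.0985). Untreated TIGK was 1.19-fold above HaCaT (adjusted p = 0.00704), a call lost with the replicate block (0.0113) and without any of Tctrl 3, Thp 2, Thp 3, Hctrl 1, Hctrl 2 or Hctrl 3 (0.0136 to 0.0567). After H2O2 the lines differed by 0.04 (95% interval -0.13 to 0.20, adjusted p = 0.695). NOTCH2 shares near-identical sequence with partial copies, of which NOTCH2NLA had a mean of 12 counts a library against 5160 for NOTCH2.

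NOTCH1, the receptor best known for tumour suppression in skin, fell in both lines. NOTCH1 (ENSG00000148400, chr9:136494433-136545786, minus strand) was at 4643, 5094 and 5809 in Tctrl, at 3374, 3712 and 3804 in Thp, at 4773, 5012 and 5051 in Hctrl, and at 4099, 3956 and 2973 in Hhp. The treated groups lay below the untreated groups, and at each condition the lines overlapped. After H2O2, TIGK gave a log2 fold change of -0.51 ± 0.10 (SE, adjusted p = 4e-04) and HaCaT -0.43 ± 0.10 (SE, adjusted p = 0.00135). The responses differed by -0.08 (95% interval -0.37 to 0.20, adjusted p = 0.756). HaCaT against TIGK gave -0.07 untreated (95% interval -0.27 to 0.13, adjusted p = 0.545) and 0.02 after H2O2 (95% interval -0.19 to 0.22, adjusted p = 0.885).

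NOTCH3, a receptor also known from vascular smooth muscle, separated the lines more than the treatment did. NOTCH3 (ENSG00000074181, chr19:15159038-15200981, minus strand) was at 2266, 2080 and 2410 in Tctrl, at 1822, 1904 and 2079 in Thp, at 359, 360.3 and 261 in Hctrl, and at 260.3, 244 and 183 in Hhp. Each TIGK library was above each HaCaT library, and in both lines the treated libraries were just below the untreated ones. NOTCH3 was 6.88-fold higher in TIGK untreated (adjusted p = 1.58e-13) and 8.47-fold higher after H2O2 (adjusted p = 7.87e-14). The response was -0.22 in TIGK (95% interval -0.44 to 0.01, adjusted p = 0.121) and -0.52 ± 0.13 in HaCaT (SE, adjusted p = 0.004), and the difference of 0.30 was not called (95% interval -0.06 to 0.66, adjusted p = 0.287). The HaCaT call was lost without Hctrl 1, Hctrl 2 or Hhp 3 (0.0214 to 0.0261). With only the HaCaT libraries fitted, it was lost in edgeR (0.014) and kept in DESeq2.

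The target genes did not follow each other. HES1, a repressor that is the classic Notch target and that other pathways also induce, rose in both lines. HES1 (ENSG00000114315, chr3:194136145-194138732, plus strand), whose promoter holds both capitalised TGGGAA above, was at 653, 587 and 492 in Tctrl, at 1941, 1935 and 1948 in Thp, at 481, 586 and 543 in Hctrl, and at 1785, 2504 and 2445 in Hhp. Every treated library was above every untreated one, with the 3 Thp libraries within 13 normalized counts of each other and Hhp 1 below the rest. HES1 rose 3.36-fold in TIGK (log2 1.75 ± 0.12, SE, adjusted p = 1.82e-09) and 4.19-fold in HaCaT (log2 2.07 ± 0.12, SE, adjusted p = 2.28e-10). The responses differed by -0.32 (95% interval -0.67 to 0.03, adjusted p = 0.232). HaCaT against TIGK gave -0.11 untreated (95% interval -0.37 to 0.15, adjusted p = 0.439) and 0.21 after H2O2 (95% interval -0.02 to 0.44, adjusted p = 0.0999), and the latter was called without Hhp 1 (0.00669).

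NRARP, an ankyrin-repeat protein that is induced by Notch and dampens it, fell in TIGK and rose in HaCaT. NRARP (ENSG00000198435, chr9:137300482-137302251, minus strand) was at 1069, 937 and 901 in Tctrl, at 694, 578 and 609.6 in Thp, at 425, 453 and 503 in Hctrl, and at 745, 983 and 837 in Hhp. The 4 groups lay in the order Hctrl, Thp, Hhp and Tctrl by mean, and only the last pair overlapped. The log2 fold change was -0.63 ± 0.11 in TIGK (SE, adjusted p = 0.000178) and 0.90 ± 0.11 in HaCaT (SE, adjusted p = 4.12e-06), and the responses differed by -1.53 ± 0.155 (SE, adjusted p = 3.05e-06). NRARP was 2.11-fold higher in TIGK untreated (adjusted p = 5.61e-08) and 1.37-fold higher in HaCaT after H2O2 (adjusted p = 0.00125), a reversal of the order of the lines. The latter call was lost without Thp 2, Thp 3 or Hhp 2 (0.0125 to 0.0219).

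HES4, a HES-family repressor, moved in the same opposed way at lower counts. HES4 (ENSG00000188290, chr1:998962-1000172, minus strand), with its single TGGGAA above, was at 605, 669 and 536 in Tctrl, at 356, 409 and 427 in Thp, at 123.0, 87.3 and 91.8 in Hctrl, and at 135, 229 and 171 in Hhp. No group overlapped another. The log2 fold change was -0.60 ± 0.16 in TIGK (SE, adjusted p = 0.00597) and 0.80 ± 0.185 in HaCaT (SE, adjusted p = 0.00161), and the responses differed by -1.40 ± 0.24 (SE, adjusted p = 0.000826). HES4 was 5.92-fold higher in TIGK untreated (adjusted p = 1.54e-10) and 2.24-fold higher after H2O2 (adjusted p = 5.34e-06). The TIGK call was lost with the replicate block (0.0108) and without any of Tctrl 1, Tctrl 2, Thp 1, Thp 2 or Thp 3 (0.017 to 0.0429), and the HaCaT call without Hctrl 2, Hctrl 3 or Hhp 2 (0.0102 to 0.0155).

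HEY1, a HES-related repressor, was higher in TIGK in both conditions and was not called in either response. HEY1 (ENSG00000164683, chr8:79764010-79767863, minus strand) was at 120.0, 121 and 125 in Tctrl, at 77.7, 112 and 80.0 in Thp, at 37.4, 25.4 and 20.7 in Hctrl, and at 45.6, 14.0 and 29.9 in Hhp. The lines did not overlap, the HaCaT groups did, and every Thp library was below every Tctrl library. HEY1 was 4.31-fold higher in TIGK untreated (adjusted p = 1.04e-05) and 3-fold higher after H2O2 (adjusted p = 0.000293). Its response was -0.44 in TIGK (95% interval -1.05 to 0.17, adjusted p = 0.257) and 0.08 in HaCaT (95% interval -0.67 to 0.83, adjusted p = 0.878). The TIGK interval includes the log2 fold change of NRARP in TIGK.

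**Figure D2:**
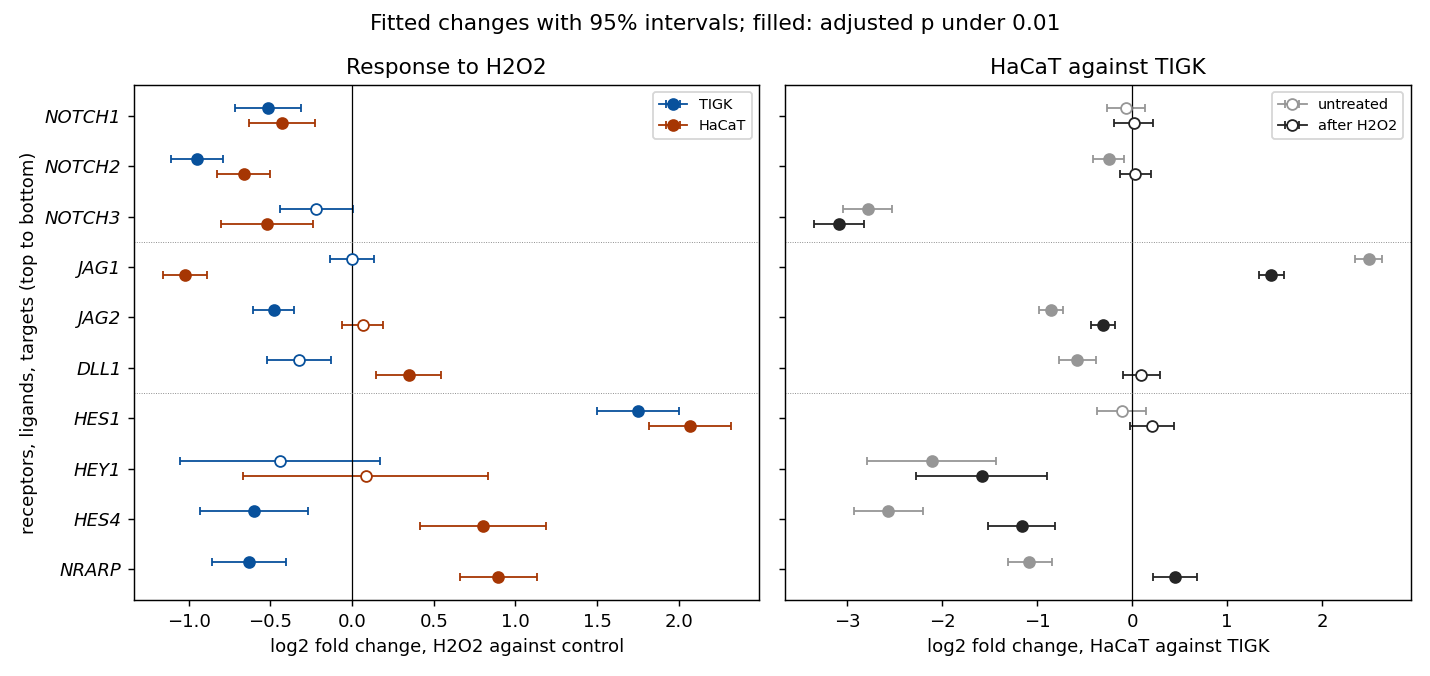
Fitted log2 fold changes of the 10 members with 95% intervals, filled where the adjusted p was under 0.01. The left panel gives the response to H2O2 in TIGK and HaCaT, where HES1 stands at 1.75 and 2.07 and NRARP and HES4 lie on opposite sides of 0 in the lines, and the right panel gives HaCaT against TIGK in each condition, where NOTCH3 stands at -2.78 and -3.08 and JAG1 at 2.49 and 1.46.

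Most members were higher in TIGK than in HaCaT without treatment, and fewer were after H2O2. In untreated cells 8 of the 10 were called, JAG1 higher in HaCaT and 7 higher in TIGK, against 59.9% of all genes called (29.1% higher in HaCaT and 30.8% higher in TIGK). After H2O2, 6 were called, JAG1 and NRARP higher in HaCaT and NOTCH3, JAG2, HEY1 and HES4 higher in TIGK, against 60.0% of all genes (30.2% higher in HaCaT and 29.8% higher in TIGK). The members' median log2 difference was -0.71 untreated and 0.03 after H2O2, beside -0.01 and 0.02 for all genes. The share of members called after H2O2 (60%) was that of all genes. The lines' responses differed for 5 of the 10 members, with the TIGK value higher for JAG1 and lower for JAG2, DLL1, HES4 and NRARP, against 5.30% of all genes (2.32% with the higher and 2.98% with the lower value in TIGK). By role, the difference was called for 3 of 3 ligands, 2 of 4 targets and 0 of 3 receptors. Of the receptors, 1 (NOTCH2) had an unadjusted p under 0.05 for the difference in edgeR, and DESeq2 called 0.

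The make-up of the summed RNA of the 3 member ligands shifted in both lines. Other ligand genes are outside this sum, among them DLK2, at 31.3 RPKM in Tctrl, 38.7 in Thp, 5.98 in Hctrl and 7.88 in Hhp. JAG1 made up 72.5% to 73.3% of the summed RPKM of JAG1, JAG2 and DLL1 in the Hctrl libraries and 53.6% to 55.5% in Hhp. In TIGK its share was 21% to 22.8% in Tctrl and 26.3% to 28.2% in Thp. JAG2 held 60.4% to 63.1% in Tctrl, 55.2% to 56.6% in Thp, 20% to 21.1% in Hctrl and 32.2% to 32.7% in Hhp. No range of a treated group overlapped that of its untreated group for these 2 ligands. The summed ligand level went from 70.6 to 73 RPKM in Tctrl to 55.8 to 57.7 in Thp, and from 115 to 128 in Hctrl to 71.2 to 83.4 in Hhp. The total of these 3 ligands was lower in each treated group, and no library of a treated group reached the lowest library of its control.

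The receptor make-up differed mainly between the lines. NOTCH3 held 19.8% to 22.3% of the summed receptor RPKM in Tctrl and 26% to 27.4% in Thp, but 3.19% to 4.44% in Hctrl and 3.8% to 4.16% in Hhp. NOTCH1 held 41.3% to 44.2% in Tctrl and 53.5% to 55.9% in Hctrl. The receptor total was 29.9 to 35.7 RPKM in Tctrl, 20.5 to 22.3 in Thp, 23.7 to 24.1 in Hctrl and 14.1 to 18.6 in Hhp, with no overlap between a treated group and its control. These shares are descriptions of the 6 receptor and ligand members only and were given no test.

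**Figure D3:**
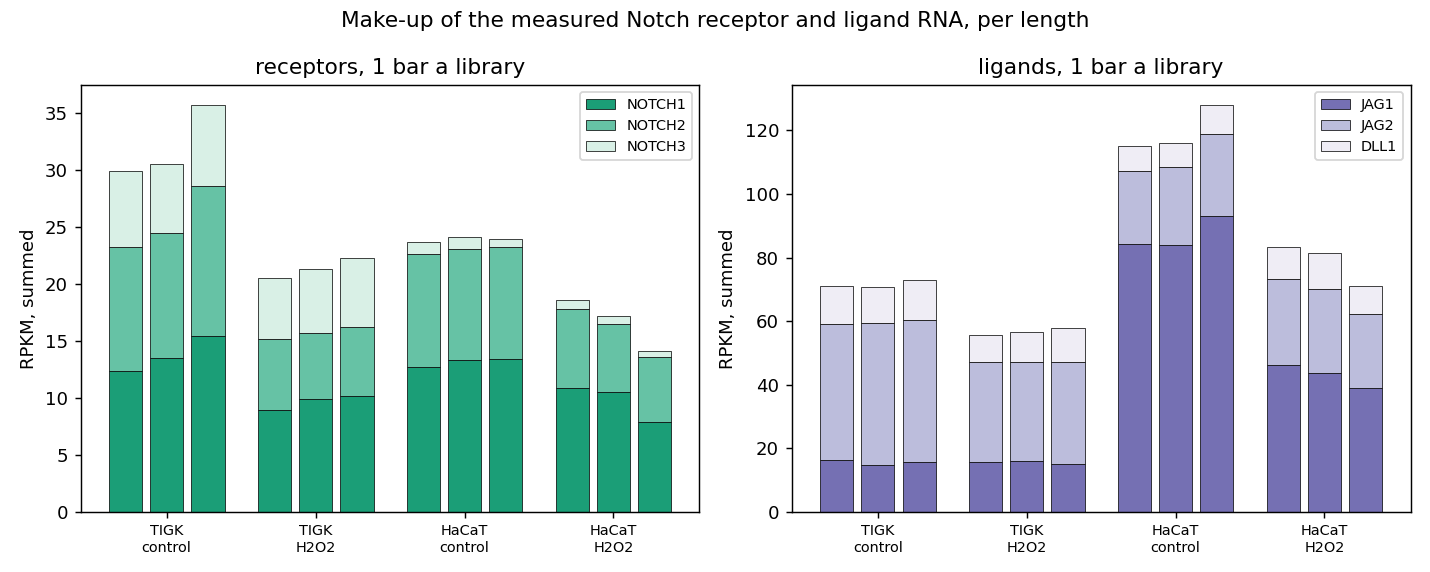
Summed RPKM of the 3 receptors (left) and the 3 ligands (right), 1 stacked bar a library, on axes that start at 0. The JAG1 segment fills 72.5% to 73.3% of the ligand bars of untreated HaCaT and 21% to 22.8% of those of untreated TIGK, and every treated bar is shorter than the control bars of its line.

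The rest of the pathway was described by 52 further genes, of which 47 passed the filter. In TIGK 16 were called, 6 higher and 10 lower after H2O2 (34%), and in HaCaT 24 were called, 10 higher and 14 lower (51.1%), each beside the shares of all genes above. Their median was -0.09 on the log2 scale in TIGK and -0.03 in HaCaT. Between the lines 35 of the 47 (74.5%) were called untreated, beside 59.9% of all genes, and 30 (63.8%) after H2O2, close to the 60.0% of all genes. The responses differed for 9 (19.1%), beside 5.30% of all genes.

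The proteases that cut the receptors were called lower in TIGK in 3 of 3 cases: ADAM10 (-0.18, adjusted p = 0.00817), ADAM17 (-0.26, adjusted p = 0.00709) and FURIN (-0.44, adjusted p = 3.37e-05), the convertase that cuts Notch on its way to the surface. Of all genes, 12.9% were called lower in TIGK. The median size of the log2 change was 0.256 for these 3 genes, close to the 0.259 of all genes. In HaCaT FURIN, there 2.12-fold above TIGK untreated (adjusted p = 1.84e-11), fell as well (-0.38, adjusted p = 8.49e-05), while ADAM10 gave -0.11 (adjusted p = 0.0681) and ADAM17 -0.23 (adjusted p = 0.0108). Among the gamma-secretase genes, the catalytic subunit PSEN2 (0.63, adjusted p = 0.00142) and the scaffold genes APH1A (0.25, adjusted p = 0.000948) and APH1B (0.69, adjusted p = 0.00684) rose in HaCaT.

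Of 5 sugar-adding enzymes that act on Notch receptors, 3 were called in TIGK (60%, beside 23.2% of all genes) and 4 in HaCaT (80%, beside 34.1%). POFUT1, LFNG and MFNG fell in TIGK, MFNG the furthest (-1.10 ± 0.12, SE, adjusted p = 1.19e-06) and LFNG by 0.58 on the log2 scale (adjusted p = 1.22e-05). The same 3 fell in HaCaT (MFNG -0.60, adjusted p = 0.000147), where RFNG, another Fringe enzyme, rose (0.78 ± 0.08, SE, adjusted p = 6.97e-07). RFNG was at 596, 589.9 and 604 in Tctrl, at 599.9, 648 and 643 in Thp, at 475, 473 and 474 in Hctrl, and at 763, 864 and 816 in Hhp, and its responses differed by -0.70 (adjusted p = 0.000626). MFNG was 2.94-fold higher in HaCaT than in TIGK untreated (adjusted p = 2.17e-10) and 4.17-fold higher after H2O2 (adjusted p = 1.09e-11).

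Among 12 tested genes of ubiquitination and endocytosis, 3 were called in TIGK (25%, beside 23.2% of all genes) and 6 in HaCaT (50%, beside 34.1%). ITCH, a ligase that targets Notch, fell in both (-0.55 in TIGK, adjusted p = 3.96e-07, and -0.93 in HaCaT, adjusted p = 3.56e-10), with a called difference of 0.38 (adjusted p = 0.00339). DTX4, a Deltex ligase, fell in HaCaT (-0.93, adjusted p = 8.93e-07), and DTX3L rose in TIGK (0.335, adjusted p = 0.00126). Of 13 genes of the nuclear complex, SPEN, a corepressor that binds RBPJ, fell in both lines (-0.80 in TIGK, adjusted p = 6.49e-06, and -1.01 in HaCaT, adjusted p = 3.39e-07). The corepressor CIR1 (0.63, adjusted p = 0.000395) and the coactivator MAML2 (0.57, adjusted p = 1.06e-05) rose in TIGK. TLE4, a Groucho-type corepressor, fell in HaCaT (-0.73, adjusted p = 2.57e-06) from a level 2.07-fold above that of untreated TIGK (adjusted p = 2.85e-09), while its relative TLE1 rose there (0.73, adjusted p = 3.19e-08). In treated cells TLE1 was 1.95-fold higher in HaCaT than in TIGK (adjusted p = 6.07e-11). RBPJ itself was called in neither response and was higher in TIGK (HaCaT against TIGK -0.92 untreated, adjusted p = 2.88e-11, and -0.87 after H2O2, adjusted p = 7.11e-11). It was named after its values were seen.

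Of the 4 other HES-family genes tested, 2 rose in HaCaT (50%, beside 18.9% of all genes called higher). HES7 was at 262, 204 and 240.4 in Tctrl, at 202, 155 and 239 in Thp, at 111, 118 and 123.4 in Hctrl, and at 246, 337 and 266 in Hhp. It rose 2.41-fold in HaCaT (adjusted p = 1.43e-05) and gave -0.24 on the log2 scale in TIGK (adjusted p = 0.284), and the responses differed by -1.51 ± 0.245 (SE, adjusted p = 0.000465). HES6 rose 1.91-fold in HaCaT (adjusted p = 8.15e-05) from a level that was 18.6-fold below TIGK (adjusted p = 1.57e-15). Its responses differed by -0.88 (adjusted p = 0.00452), a call lost without any of Tctrl 1, Tctrl 2, Thp 1, Thp 2, Thp 3, Hctrl 1 or Hhp 2 (0.0125 to 0.0211).

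A further 3 ligand genes were higher in TIGK in both conditions, beside 30.8% of all genes untreated and 29.8% after H2O2. DLL3, a Delta-like protein that acts inside the cell, was 13.5-fold higher untreated (adjusted p = 4.89e-09) and 12.1-fold higher after H2O2 (adjusted p = 1.14e-08). DLL4, a Delta-like ligand known from blood vessels, was at 74.2, 58.1 and 92.0 in Tctrl and at 40.6, 65.7 and 74.4 in Thp, whereas the 3 Hctrl libraries held 12 counts in all and the 3 Hhp libraries 2. DLL4 had its 12 Hctrl counts in Hctrl 3 alone and its 2 Hhp counts in Hhp 2 alone. Its untreated difference was called in edgeR (adjusted p = 2.33e-05) and not by DESeq2 on the untreated groups alone (0.0321). DLK2, a Delta-like homologue, rose in both lines (0.31 in TIGK, adjusted p = 0.000776, and 0.40 in HaCaT, adjusted p = 0.000177).

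**Figure D4:**
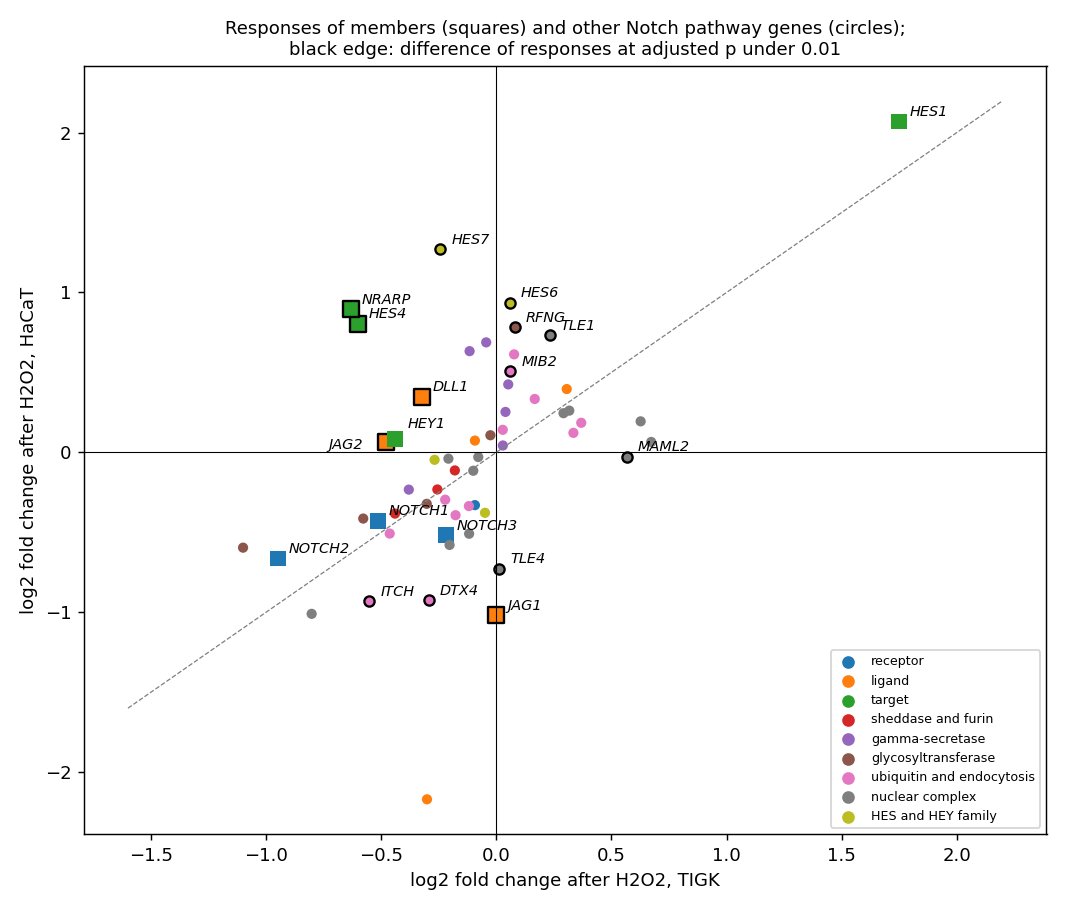
Response to H2O2 in TIGK (horizontal axis, log2 fold change) against that in HaCaT (vertical axis, log2 fold change) for the 10 members (squares) and the 47 further pathway genes tested (circles), coloured by role, with a black edge where the difference of the responses had an adjusted p under 0.01 and a dashed line of equal responses. HES1 lies at the top right at 1.75 and 2.07, NRARP and HES4 lie at the upper left, and JAG1 lies straight below 0. The lowest circle is DLL4, which had 12 and 2 counts over the HaCaT groups, all in Hctrl 3 and in Hhp 2.

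Further genes known as regulated by Notch in keratinocytes, or opposed to it, were followed alongside. CDKN1A, a cell-cycle inhibitor, rose in TIGK (0.62 ± 0.07, SE, adjusted p = 3.88e-06) and gave 0.13 in HaCaT (adjusted p = 0.163), with a called difference of 0.49 (adjusted p = 0.00496). IVL, a precursor of the cornified envelope, was at 3632, 3176 and 3546 in Tctrl, at 2574, 3014 and 3302 in Thp, at 1226, 1253 and 1031 in Hctrl, and at 493, 514 and 506 in Hhp. It fell in HaCaT (-1.21 ± 0.10, SE, adjusted p = 1.74e-08), and the responses differed by 1.00 ± 0.13 (SE, adjusted p = 4.95e-05). TP63, the transcription factor of basal keratinocytes, fell in both lines (-0.25, adjusted p = 0.00261, and -0.62, adjusted p = 1.18e-07). The keratin KRT1 fell in HaCaT (-0.52, adjusted p = 0.00137), though the groups overlapped, with Hctrl 3 at 22620 and Hhp 1 at 23590. KRT10 was called in neither response (0.23 in TIGK, adjusted p = 0.0691, and -0.21 in HaCaT, adjusted p = 0.0797). Between the untreated lines, KRT1 was 8.63-fold higher in HaCaT (adjusted p = 7.14e-14), and IVL was 2.95-fold (adjusted p = 1.03e-11) and KRT10 2.26-fold (adjusted p = 2.07e-09) higher in TIGK.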

How the data were processed

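PolyA RNA of HaCaT and TIGK, each untreated or given H2O2, was sequenced in 12 libraries. The authors deposited raw read counts per gene, with gene lengths. Per the labels and methods, reads were mapped to GRCh38/hg38 with HISAT2 (2.0.5 and 2.0.0 are both named) and counted with featureCounts (1.5.0-p3). The annotation release and the use of strand and of multi-mapped reads are not given in the sources used here. The fold changes and p-values of the authors' own DESeq2 comparisons were not used.

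Genes with a mean count of at least 10 were fitted over all libraries with 1 mean a group in edgeR 4.0.16 (R 4.3.3, TMM, quasi-likelihood test, common dispersion 0.0073), with Benjamini-Hochberg adjustment over 16618 genes and a threshold of 0.01. The difference of the responses was an interaction contrast. Intervals are at 95%. Alternatives were DESeq2 1.42.0, other scalings and filters, groups fitted alone, a replicate block and each library left out.

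Tested on simulated data with 200 genes changed by 1 on the log2 scale, the TIGK response over 16618 genes recovered 173 with 2 false calls, and the difference 151 with 4. Replicates differed by more than sampling noise (chi-square per degree of freedom 4.57 to 30.3). The members and lists were chosen with earlier results of these data known. All members are named, as are the 3 called pathway genes with the largest rise and fall in each comparison (with a mean of 50 normalized counts or more in either group). Other pathway genes were named after their values were seen. Some genes of the lists are not reported here.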

Additional observations from a re-analysis of the deposited data

Results flagged for a closer look

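The response to H2O2 differed between TIGK and HaCaT, by the interaction term of edgeR's quasi-likelihood test (TIGK minus HaCaT, log2 scale), in the genes below and in ITCH, TLE1, CDKN1A, IVL and TP63 (0.381, -0.50, 0.488, 0.996 and 0.375). Among the members the difference was 1.02 for JAG1, -0.545 for JAG2, -0.671 for DLL1, -1.40 for HES4 and -1.53 for NRARP. Among the other pathway genes it was 0.742 for TLE4, a Groucho-type corepressor, 0.635 for DTX4, 0.595 for MAML2, -1.51 for HES7, -0.875 for HES6 and -0.701 for RFNG. TLE4 was at 721, 757 and 889 in Tctrl, at 732, 895 and 761 in Thp, at 1628, 1622 and 1647 in Hctrl, and at 985, 1012 and 959.7 in Hhp, so that its HaCaT groups were apart and its TIGK groups overlapped. The DTX4 call was lost without any of Tctrl 1, Thp 1, Hctrl 1, Hctrl 2, Hctrl 3 or Hhp 2 (adjusted p 0.0105 to 0.0154).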

How the results depend on the processing

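The counts of members called stayed within 1.5 times their reported values, except for the HaCaT response, which went from 8 to between 5 and 8 with each library left out. Counting only genes with a log2 fold change over 0.5 in size left 6, 15, 22 and 18 pathway genes called in the TIGK response, the HaCaT response, untreated cells and treated cells. The 9 pathway genes whose responses differed became 5 to 12 with each library left out, and 5 without Tctrl 1, Thp 1 or Hctrl 1. Over all genes, 881 responses differed, against 1403 by DESeq2 and 536 to 1092 with each library left out. None of the values that changed sign was called, and their reported values were within 0.1 of 0. JAG1 in TIGK became 0.00681 (DESeq2), 0.00683 (its size factors), 0.0168 (library totals), 0.033 (no filter), 0.000212 (replicate block) and -0.00864 to 0.0487 (each library left out). NOTCH1 between the treated lines became -0.0173 (DESeq2), -0.0217 (DESeq2 on those groups), -0.0179 (size factors), -0.0585 (library totals), -0.063 (upper quartile), -0.0135 (no filter), -0.0108 (mean count of 50) and -0.109 to 0.151 (each library left out). NOTCH2 between the treated lines became -0.00414 (DESeq2 on those groups), -0.0395 (library totals), -0.044 (upper quartile) and -0.0966 to 0.102 (each library left out). With each library left out, JAG2 in HaCaT ranged from -0.0057 to 0.13, HEY1 in HaCaT from -0.382 to 0.414, NOTCH1 between the untreated lines from -0.145 to 0.0187, and its difference of responses from -0.217 to 0.0637. The cause of these changes was not tested. The replicate numbers did not pair the libraries (correlations of same-numbered deviations -0.121 to 0.0257, with 2 of 12 libraries closest to their own number). The replicate block ended the calls of HES4 in TIGK (-0.596, adjusted p = 0.0108) and NOTCH2 between the untreated lines (-0.248, adjusted p = 0.0113) and no other member's call. HEY1 had the lowest counts of the members, at 12 to 120 a library.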

Other observations

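The genes with the pattern over the 12 libraries most like that of 3 members were taken by the smallest root mean square difference of centred log2 CPM among 16617 genes, as a description with no test. Nearest to HES1 were HSPA1A, a heat-inducible chaperone (0.199), ANKRD37 (0.241) and PHACTR3 (0.277). HSPA1A was at 5185 ± 821 normalized counts (SD, n = 3) in Tctrl, 14230 ± 190.0 in Thp, 3899 ± 203 in Hctrl and 14790 ± 2080 in Hhp, and it has a near-identical copy, HSPA1B, with which reads may be shared. Nearest to JAG1 were FERMT1, a kindlin that activates integrins (0.11), SEMA3A, a secreted guidance protein (0.144) and LINC00842 (0.187). FERMT1 was 5.85-fold higher in untreated HaCaT than in TIGK (adjusted p = 1.57e-17) and fell by 1.01 on the log2 scale in HaCaT (adjusted p = 1.09e-10). Nearest to NOTCH1 were MICAL3 (0.0811), MAPK7 (0.0815) and ZCCHC14 (0.0823).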
